A study of Bos taurus with 5 samples.

Results

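Solute carriers are membrane proteins that move nutrients, ions and metabolites across the cell surface and the membranes of organelles without using ATP directly. Their genes carry names starting with SLC, followed by a family number, or SLCO for the organic anion carriers. In skeletal muscle they bring in amino acids and sugars, pass lactate between fibres and blood, set cell volume and pH, and supply the Golgi apparatus with zinc and sugar nucleotides.

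The genes described here are those whose symbol in the deposited table follows that pattern, without the mitochondrial carriers of family 25 and the fatty acid carriers of family 27. There were 106 of them among the 7589 genes with a symbol and the 9022 genes listed in all. They comprised 101 SLC and 5 SLCO genes, and 104 encode carriers. The other two only bear a carrier's name: SLC9A3R2 encodes a scaffold protein that binds sodium-proton exchangers, and SLC2A4RG encodes a regulator of transcription. Genes with no row in the table, among them SLC2A4, SLC16A1, SLC16A3, SLC7A5, SLC6A8 and SLC22A5, were not analysed here.

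RNA was sequenced from longissimus dorsi, the long back muscle, of 5 Jiaxian Red cattle aged 18 months, with 1 library per animal. All 5 libraries form 1 group with no treatment, so there was no contrast between conditions, and differences between libraries cannot be told apart from differences of dissection, RNA quality or library preparation. Values are FPKM, fragments scaled for transcript length and library size, given by the authors per transcript and summed here per gene. Since FPKM is scaled by length, levels of different genes can be set side by side.

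The libraries summed to between 193706 and 223251 FPKM over all genes, and without counts the read depth is unknown. Genes of skeletal muscle defined the tissue: its 6 markers, led by ACTA1, summed to between 15493 and 18253 FPKM. Not every muscle marker was high: MB averaged 275 FPKM and CKM 16.2 FPKM, below the fibroblast gene COL3A1 at 457 FPKM. As sums, markers of other cells were far lower, at 77.9 to 90.3 FPKM for 5 endothelial genes. Of those, VWF averaged only 0.0713 FPKM. The 2 listed of 5 fibroblast genes summed to 316 to 651 FPKM, mostly from COL3A1. The 3 listed of 4 Schwann cell genes summed to 40.6 to 56.4 FPKM and the 2 listed of 3 smooth muscle genes to 20.5 to 58.0 FPKM. Only MRC1 of 4 macrophage genes was listed, at 3.99 to 12.1 FPKM, only HBB of 4 erythroid genes, at 0.253 to 3.09 FPKM, and only CIDEC of 4 adipocyte genes, at 0 to 0.809 FPKM. In bulk tissue, fewer cells of a type and less RNA per cell cannot be told apart.

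As a group the solute carriers were expressed at low levels. A mean of at least 1 FPKM, taken here as detection, was reached by 61 of the 106 (57.5%), against 71.4% of all genes with a symbol. Only 10 of the 106 (9.43%) averaged 10 FPKM or more, against 25.2% of all genes with a symbol. In every library at least 1 FPKM was reached by 50 members (47.2%), against 61.0% of all genes with a symbol. A value of 0 in some library was listed for 15 members (14.2%), against 8.59% of all genes with a symbol. The median of the detected members' means was 3.68 FPKM, against 6.46 FPKM over all 5415 detected genes with a symbol. The 45 members under a mean of 1 FPKM together held 2.37% of the carriers' summed FPKM. At the limit itself, SLC15A4 at a mean of 1.03 FPKM was the lowest detected member and SLC36A1 at 0.893 FPKM the highest undetected.

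The signal was concentrated in a few genes. Over the 5 animals the 106 genes summed to 492 ± 34.1 FPKM (SD, n = 5), which was 0.238% ± 0.0161 of all FPKM in the table. The 10 most abundant members held 58.4% ± 1.44 of the carriers' sum (SD, n = 5). SLC38A2 and SLC29A1 alone held 34.5% ± 4.81, from 28.8% to 39.1% in single animals. After them came SLC40A1, SLC16A7, SLC9A3R2, SLC4A7, SLC49A4, SLCO5A1, SLC35F5 and SLC31A1.

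**Figure D1:**
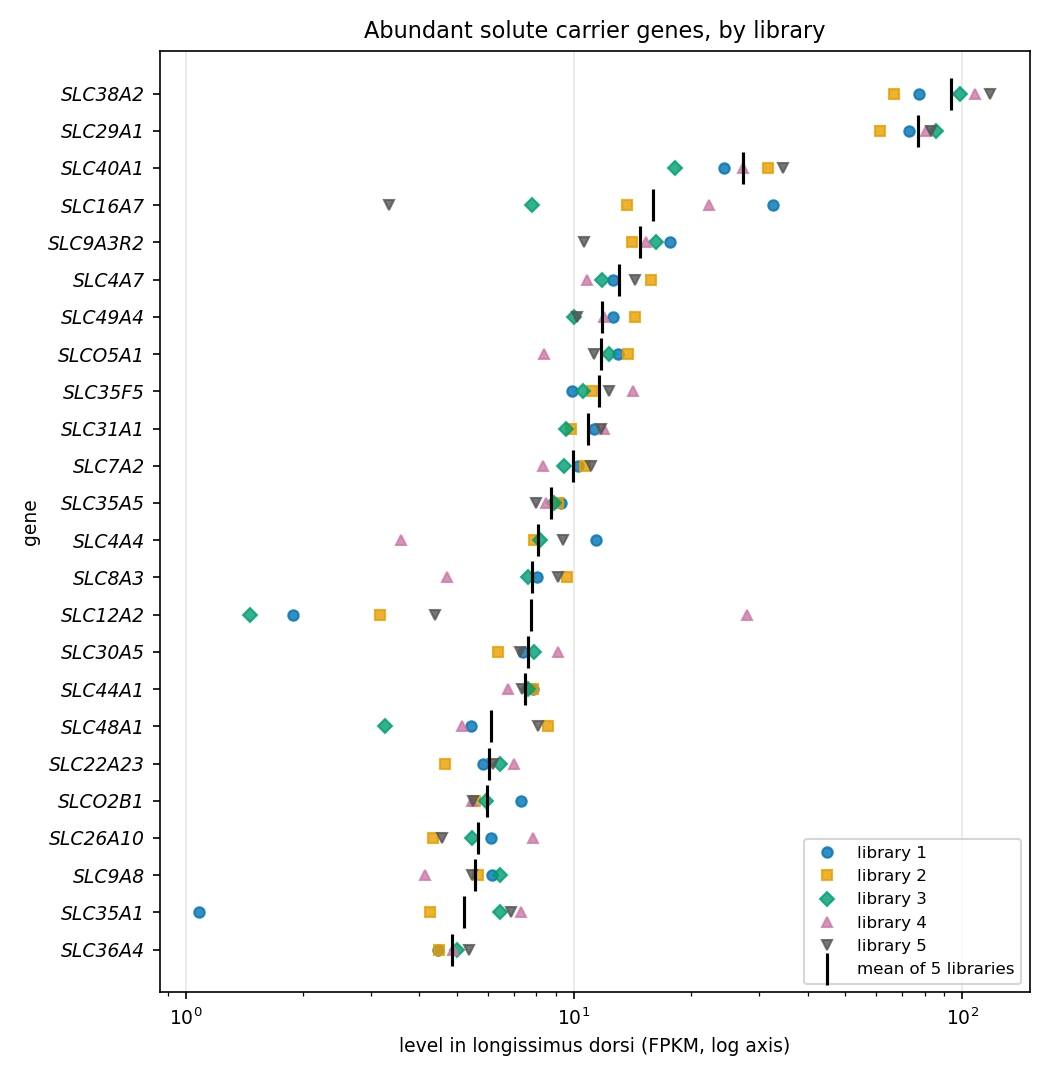
FPKM of 24 abundant solute carrier genes (log axis), with a point for each of the 5 libraries and a bar at their mean. SLC38A2 and SLC29A1 lie above all others in every library, while the points of SLC16A7 and SLC12A2 span 9.77-fold and 19.1-fold.

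By substrate, carriers of amino acids held the greatest share of the sum, 25.8% ± 3.51, followed by those of nucleosides with 15.6% ± 1.61 (SD, n = 5). Carriers of iron, copper, magnesium and haem held 9.95% ± 1.84, those of sodium, potassium, chloride and calcium 8.52% ± 1.14, and those of bicarbonate and other anions 7.82% ± 0.976. Nucleotide sugar carriers held 6.69% ± 0.489, carriers of organic anions and cations 6.63% ± 0.831 and zinc carriers 4.54% ± 0.246. The listed lactate and monocarboxylate carriers held 3.26% ± 2.29, those of choline and vitamins 2.33% ± 0.227 and those of glucose and other sugars 1.02% ± 0.357. These shares count listed genes only, so the small sugar and lactate shares say nothing of SLC2A4, SLC16A1 or SLC16A3. The 45 members assigned to the cell surface from general knowledge held 66.9% ± 1.81 and the 33 assigned to organelles 18.0% ± 1.003 (SD, n = 5). Detection was reached by 28 (62.2%) and 21 (63.6%) of them, against 71.4% of all genes with a symbol. A further 26 carriers without an assigned location held 11.5% ± 0.717 (SD, n = 5), and 10 of them (38.5%) were detected.

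**Figure D2:**
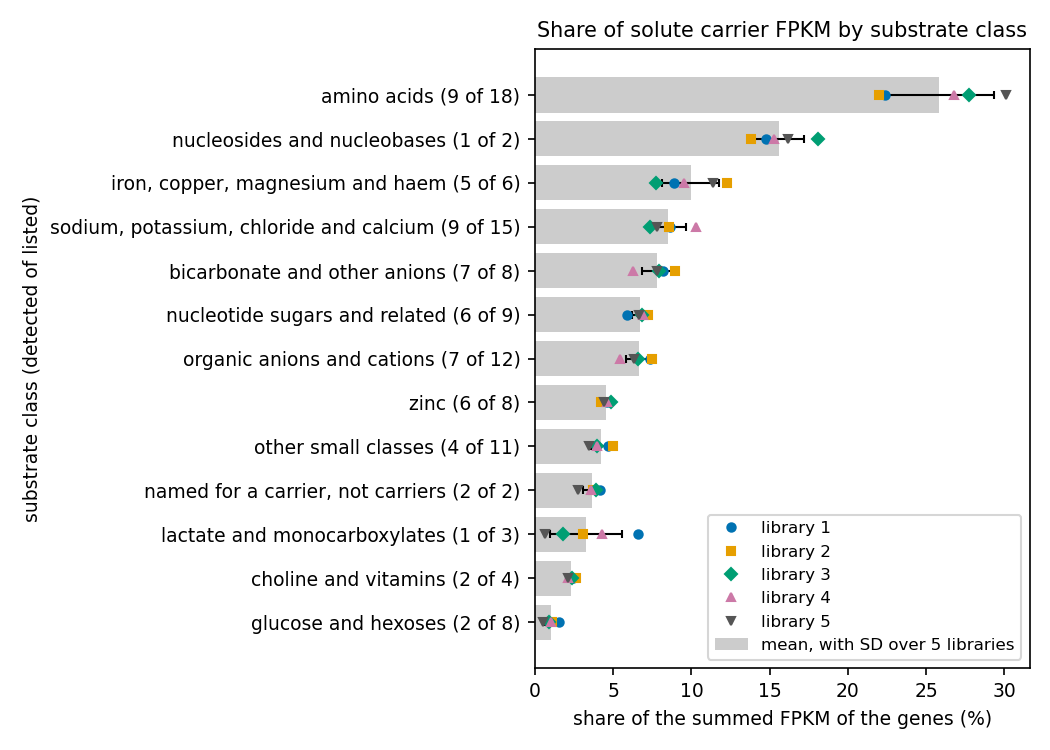
Share of the summed FPKM of the 106 genes held by each substrate class, as the mean (bar) with its SD over 5 libraries and a point for each library. Amino acid carriers lead at 25.8%, and the lactate class varies most relative to its mean, from 0.663% in library 5 to 6.56% in library 1.

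Among amino acid carriers a single gene dominated. SLC38A2, which takes up glutamine, alanine and other small neutral amino acids together with sodium, was at 77.5, 66.7, 98.7, 108 and 118 FPKM in libraries 1 to 5. Its mean of 93.8 ± 21.3 FPKM (SD, n = 5) lay above 96.2% of detected genes with a symbol. Libraries 1 and 2 were the lowest and library 5 the highest, 1.77-fold above library 2. The gene had a single listed transcript, on chromosome 5 from 33850777 to 33865222. These coordinates are as the table gives them, and no build is claimed for them: the submitters' notes name UMD3.1, yet 103 of the 104 members found by symbol in the ARS-UCD2.0 RefSeq table lay over the same position in it.

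SLC38A2 lies between 2 relatives that were far lower. SLC38A1, a close relative with a similar range of substrates, starts 75342 bases beyond it and averaged 2.76 ± 0.471 FPKM. SLC38A4, of the same family, ends 366886 bases before it and averaged 2.56 ± 0.841 FPKM, from 1.42 FPKM in library 1 to 3.80 FPKM in library 5 (SD, n = 5). SLC38A2 was higher than SLC38A1 in 5 of 5 animals, and the mean log2 ratio of FPKM + 1 corresponded to 24.8-fold.

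The next most abundant amino acid carrier was SLC7A2, which takes up arginine, lysine and ornithine. It was at 10.3, 10.7, 9.45, 8.34 and 11.1 FPKM in libraries 1 to 5, a mean of 9.96 ± 1.09 FPKM (SD, n = 5), so the 5 animals lay within 1.33-fold of each other. SLC36A4, a carrier of proline and tryptophan, was steadier still at 4.85 ± 0.376 FPKM. SLC38A10 averaged 3.52 ± 0.952 FPKM, and SLC16A10, which carries aromatic amino acids, 2.66 ± 0.619 FPKM (SD, n = 5). SLC7A8, a light chain of a carrier of large neutral amino acids, had 2.08 FPKM in library 1, 2.32 FPKM in library 2 and then 0.915, 0.457 and 1.13 FPKM in libraries 3 to 5. In those 5 libraries its level spanned 5.09-fold, and libraries 1 and 2 stood above the rest.

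Detection was reached by 50% of the 18 amino acid carriers, against 71.4% of all genes with a symbol, and 9 stayed under a mean of 1 FPKM. Among these, SLC38A9, the lysosomal arginine sensor upstream of mTORC1, was listed at 0 in libraries 2 and 4, with 1.08 FPKM in library 1, 0.826 FPKM in library 3 and 1.08 FPKM in library 5. Only 1 of its 2 numbered transcripts was listed. SLC36A1, a lysosomal amino acid exporter, stayed between 0.625 and 1.11 FPKM. The excitatory amino acid carriers SLC1A1 and SLC1A2 averaged 0.213 and 0.320 FPKM. SLC7A10, a neutral amino acid carrier known from brain and fat, was detected, at 2.47 ± 0.704 FPKM (SD, n = 5). Among 13 genes of amino acid sensing chosen for the comparison 4 were listed and 3 of these detected, against 71.4% of all genes with a symbol. They were LAMTOR1 at 11.4 ± 3.35 FPKM, MTOR at 7.64 ± 0.675 FPKM and SESN1 at 1.55 ± 0.863 FPKM (SD, n = 5).

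Of the 2 listed nucleoside carriers SLC29A1 was by far the more abundant, and nucleoside carriers with no row were not analysed. SLC29A1 is the equilibrative carrier that lets adenosine and other nucleosides cross the membrane in both directions. It was at 73.0, 61.5, 85.4, 80.9 and 83.0 FPKM in libraries 1 to 5, a mean of 76.8 ± 9.73 FPKM (SD, n = 5) that lay above 95.3% of detected genes with a symbol. Library 2 was the lowest and the range only 1.39-fold. SLC28A1, the sodium-coupled nucleoside carrier of gut and kidney, had 0.290 FPKM in library 1 and no more than 0.0576 FPKM elsewhere. Of 11 genes of nucleoside and nucleotide salvage 4 were listed and 2 of these detected, against 71.4% of all genes with a symbol. They were ADK, which phosphorylates adenosine, at 10.6 ± 2.31 FPKM and UCK1, a uridine and cytidine kinase, at 2.02 ± 0.439 FPKM.

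The listed sugar carriers were all scarce. SLC37A4, which brings glucose 6-phosphate into the endoplasmic reticulum, was at 3.67, 1.51, 1.07, 1.90 and 0.806 FPKM in libraries 1 to 5, with library 1 the highest. SLC2A9, a urate and hexose carrier, was at 2.01, 1.31, 1.62 and 1.39 FPKM in libraries 1 to 4 and listed at 0 in library 5. For both, lower-numbered transcripts had no row, and the sum may hold only a fraction of the gene's RNA. The other 6 sugar carriers stayed under a mean of 1 FPKM. Detection was thus 25% of the 8, against 71.4% of all genes with a symbol. SLC50A1 averaged 0.556, SLC45A2 0.380, SLC37A1 0.364 and SLC5A10 0.193 FPKM. SLC45A4 was listed at 0 in libraries 3 and 4, with 0.791 FPKM in library 1, 0.416 FPKM in library 2 and 0.406 FPKM in library 5. SLC37A3 was listed at 0 in libraries 1 and 4, with 0.334 FPKM in library 2, 0.0628 FPKM in library 3 and 0.347 FPKM in library 5. SLC2A13, the proton-coupled carrier of inositol from the glucose carrier family, was low but even, at 1.28 ± 0.158 FPKM (SD, n = 5).

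Of 15 genes of the vesicle traffic of the insulin-responsive glucose carrier 12 were listed. Of these 11 were detected, against 71.4% of all genes with a symbol. RAB8A was the undetected one, at 0.216 FPKM. RHOQ, a small GTPase of that pathway, averaged 86.9 ± 10.01 FPKM, LNPEP, an aminopeptidase that shares the vesicles, 41.6 ± 11.2 FPKM, and RAC1, a GTPase of the actin response, 31.7 ± 5.12 FPKM (SD, n = 5). SLC2A4RG, named for its action on the SLC2A4 promoter, averaged 2.98 ± 0.719 FPKM.

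Lactate transport was represented by SLC16A7, a monocarboxylate carrier of high affinity for pyruvate and lactate, whose level differed widely between animals. It was at 32.6, 13.7, 7.81, 22.3 and 3.34 FPKM in libraries 1 to 5, a mean of 15.9 ± 11.7 FPKM (SD, n = 5). Libraries 1 and 4 were high and library 5 low, with a 9.77-fold range. Its SD of 1.16 on the log2(FPKM + 1) scale was second among the detected carriers and above that of 97.9% of detected genes with a symbol. Nearly all of it came from transcript SLC16A7-201, at 15.8 ± 11.7 FPKM, and both numbered transcripts were listed.

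Other values moved with SLC16A7 in part. LDHB, the lactate dehydrogenase subunit that favours pyruvate, was at 211, 180.4, 193, 257 and 147 FPKM in libraries 1 to 5, also highest in libraries 4 and 1 and lowest in library 5. The 2 listed fibroblast genes summed to 651, 316, 436, 641 and 371 FPKM in libraries 1 to 5, high in libraries 1 and 4. Of these genes COL3A1 was high in both, while PDGFRA was high in library 4 alone, at 32.1 FPKM against 25.9 FPKM in library 1. The 3 listed Schwann cell genes summed to 54.3 and 56.4 FPKM in libraries 1 and 4, against 40.6 to 41.5 FPKM in the others. The 2 listed smooth muscle genes summed to 58.0, 25.5, 41.3, 35.3 and 20.5 FPKM in libraries 1 to 5. That sum was highest in library 1 and lowest in library 5, but higher in library 3 than in library 4. The 5 endothelial genes summed to 90.3, 77.9, 85.3, 84.6 and 89.3 FPKM, lowest in library 2 and nearly as high in library 5 as in library 1. The 6 skeletal muscle genes did not share a direction. Their sum was lowest in library 1 and highest in library 4, CKM was at 35.5 FPKM in library 1 and 2.50 FPKM in library 5, and MB was at 106 FPKM in library 1 and 766 FPKM in library 5. The part of tissue composition in the SLC16A7 values was not tested. The other 2 monocarboxylate carriers stayed under a mean of 1 FPKM. Detection was thus 33.3% of the 3 listed, against 71.4% of all genes with a symbol. SLC16A12, which carries creatine, reached at most 0.446 FPKM and SLC5A8 at most 0.0782 FPKM. EMB, a partner that escorts carriers of this family to the membrane, peaked at 0.508 FPKM in library 4 and was listed at 0 in library 3. Of 10 partners and lactate enzymes 4 were listed, of which only LDHB was detected, against 71.4% of all genes with a symbol.

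Of the 8 zinc carriers 6 were detected (75%), against 71.4% of all genes with a symbol, and SLC30A5 was the most abundant. SLC30A5, which moves zinc into the Golgi apparatus, was at 7.40, 6.36, 7.88, 9.10 and 7.28 FPKM in libraries 1 to 5, a mean of 7.60 ± 1.002 FPKM (SD, n = 5). SLC30A7, another Golgi zinc importer, averaged 2.42 ± 0.498 FPKM and SLC30A4, of endosomal vesicles, 3.06 ± 0.556 FPKM. Carriers of the opposite direction, which release zinc into the cytosol, were SLC39A13 at 4.36 ± 0.348 FPKM and SLC39A11 at 2.80 ± 0.759 FPKM. SLC39A13 was steady, with an SD on the log2(FPKM + 1) scale above that of only 5.76% of detected genes with a symbol. Adding 1 FPKM lowers that SD more for low genes than for abundant ones. SLC39A3, a carrier of the same family, had 0.531 FPKM in library 3, against 1.58, 2.14, 2.81 and 2.32 FPKM in libraries 1, 2, 4 and 5. SLC39A10 and SLC39A12, both zinc importers, averaged 0.173 and 0.0527 FPKM. Of 7 zinc-binding or zinc-sensing genes 2 were listed and neither was detected, against 71.4% of all genes with a symbol. The metallothionein gene MT1A averaged 0.511 FPKM and TMEM163 0.233 FPKM.

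The iron exporter SLC40A1 was the third most abundant member. This gene encodes ferroportin, the route by which iron leaves cells, and it was at 24.4, 31.6, 18.2, 27.3 and 34.6 FPKM in libraries 1 to 5, a mean of 27.2 ± 6.39 FPKM (SD, n = 5). SLC48A1, which moves haem out of endosomes and lysosomes, was at 5.42, 8.55, 3.27, 5.15 and 8.10 FPKM. Both were lowest in library 3 and had their 2 highest values in libraries 2 and 5. MRC1, the listed macrophage marker, was at 11.1, 6.19, 3.99, 10.04 and 12.1 FPKM, also lowest in library 3 and highest in library 5 but low in library 2. The other 3 macrophage markers had no row, and the part of macrophages in these values was not tested.

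Copper and divalent metal carriers were steadier or lower. SLC31A1, the copper importer, stayed between 9.53 and 11.9 FPKM, and its mean was 10.9 ± 1.11 FPKM. SLC11A2, the divalent metal carrier that takes up ferrous iron, averaged 1.99 ± 0.680 FPKM, and SLC41A3, a magnesium carrier, 2.13 ± 0.569 FPKM (SD, n = 5). Of 9 genes of iron and copper handling 6 were listed and 5 of these detected, against 71.4% of all genes with a symbol. FTH1, the ferritin heavy chain, averaged 255 ± 61.5 FPKM, TFRC, the transferrin receptor, 143 ± 29.8 FPKM, and the copper pump ATP7A 17.6 ± 2.18 FPKM.

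Carriers of bicarbonate, which hold cell pH against the acid of working muscle, were led by 2 sodium-coupled genes. SLC4A7 was at 12.6, 15.8, 11.8, 10.8 and 14.4 FPKM in libraries 1 to 5, a mean of 13.1 ± 1.99 FPKM, and SLC4A4 at 11.4, 7.89, 8.17, 3.58 and 9.39 FPKM, a mean of 8.09 ± 2.88 FPKM (SD, n = 5). Both were lowest in library 4, SLC4A4 more so. SLC4A7 had 6 listed transcripts, of which SLC4A7-201 gave 8.26 ± 1.33 FPKM. SLC4A2, the chloride-bicarbonate exchanger found in most cells, was even at 2.48 ± 0.121 FPKM. Its SD on the log2(FPKM + 1) scale exceeded that of only 0.942% of detected genes with a symbol. Adding 1 FPKM lowers that SD more for low genes than for abundant ones. In the anion family SLC26, SLC26A10 averaged 5.67 ± 1.41 FPKM, SLC26A7 3.73 ± 0.880 FPKM and SLC26A11, a lysosomal sulphate and chloride carrier, 3.46 ± 1.08 FPKM (SD, n = 5).

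Among carriers of sodium, potassium, chloride and calcium no gene averaged 10 FPKM, and SLC12A2 was the most variable of all detected carriers. SLC12A2 brings sodium, potassium and chloride into cells together and was at 28.0 FPKM in library 4, against 1.89, 3.17, 1.47 and 4.39 FPKM in libraries 1, 2, 3 and 5. Its mean of 7.77 FPKM is set by library 4, and without that library no value exceeded 4.39 FPKM. On the log2(FPKM + 1) scale its SD of 1.42 exceeded that of 98.9% of detected genes with a symbol. The table listed 1 of its 2 numbered transcripts. WNK1, the kinase at the head of the pathway that switches this carrier on, was at 12.1 FPKM in library 4 and 15.5 to 16.1 FPKM in the others.

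SLC12A7, a potassium-chloride exporter that opposes SLC12A2, varied less, at 3.56 ± 0.757 FPKM (SD, n = 5). SLC8A3, the sodium-calcium exchanger of skeletal muscle and brain, was at 8.04, 9.59, 7.63, 4.71 and 9.12 FPKM in libraries 1 to 5, and SLC8A1, the main form of the heart, at 6.58, 3.48, 4.36, 4.36 and 3.15 FPKM. SLC8A3 was therefore lowest in library 4, and SLC8A1 highest in library 1. SLC8B1, which exchanges sodium for calcium across the inner mitochondrial membrane, averaged 2.24 ± 0.464 FPKM.

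SLC9A8, a sodium-proton exchanger of the Golgi apparatus, averaged 5.57 ± 0.897 FPKM. The scaffold gene SLC9A3R2 was higher, at 14.8 ± 2.66 FPKM (SD, n = 5). Of 8 genes of the sodium pump and of kinases that act on these carriers 6 were listed. All of these were detected, against 71.4% of all genes with a symbol. ATP1B1, a beta subunit of the sodium pump, averaged 182 ± 20.5 FPKM, FXYD1, its regulator phospholemman, 123 ± 43.0 FPKM, and WNK1 15.1 ± 1.69 FPKM.

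The nucleotide sugar class holds the SLC35 family, several of whose members feed glycosylation in the Golgi apparatus and endoplasmic reticulum. SLC35F5, whose substrate is not settled, held 2.36% of the carriers' sum and led with 11.6 ± 1.69 FPKM and SLC35A5 followed with 8.74 ± 0.509 FPKM (SD, n = 5). SLC35A1, the carrier of CMP-sialic acid, was at 1.08 FPKM in library 1, against 4.27, 6.44, 7.32 and 6.91 FPKM in libraries 2 to 5. SLC35A3, which carries UDP-N-acetylglucosamine, went the other way, at 3.68 FPKM in library 1, against 0.988, 1.17, 0.975 and 1.68 FPKM. Library 1 thus stood low for the sialic acid carrier and high for the acetylglucosamine carrier. SLC35A1 had no gap in its transcript numbering, while 1 of 3 numbered transcripts of SLC35A3 was listed. SLC35D1 averaged 3.68 ± 0.609 FPKM and SLC35B4 1.11 ± 0.197 FPKM.

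Carriers of organic anions and cations had a median SD of 0.29 on the log2(FPKM + 1) scale over the 7 detected, against 0.24 over detected genes with a symbol. SLCO5A1, an organic anion carrier family member without a settled substrate, averaged 11.7 ± 2.09 FPKM and was lowest in library 4, at 8.37 FPKM. SLCO2B1, which carries steroid sulphates, was at 7.32 FPKM in library 1 and 5.46 to 5.94 FPKM in the others. SLC22A23 averaged 6.03 ± 0.879 FPKM, SLC22A4, the ergothioneine carrier, 3.20 ± 1.05 FPKM, SLCO3A1 1.54 ± 0.487 FPKM and SLC22A17, a receptor for lipocalin, 1.43 ± 0.623 FPKM (SD, n = 5). SLC44A1, the choline carrier, averaged 7.49 ± 0.449 FPKM and SLC23A2, the sodium-coupled carrier of vitamin C, 3.71 ± 0.432 FPKM. Both lay within 1.29-fold over the 5 animals.

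Lysosomal carriers included the seventh most abundant member. SLC49A4, a carrier of the lysosomal membrane, averaged 11.8 ± 1.81 FPKM, and SLC17A5, which exports sialic acid from lysosomes, 4.84 ± 0.572 FPKM (SD, n = 5). SLC15A4, a lysosomal carrier of histidine and peptides, was at 1.51, 1.06, 1.08 and 1.41 FPKM in libraries 1 to 4 and at 0.0707 FPKM in library 5. SLC6A6, the taurine carrier, had 1.16 FPKM in library 1 and no more than 0.126 FPKM elsewhere, with 2 of 5 numbered transcripts listed. SLC20A2, a phosphate carrier, reached at most 0.530 FPKM. It begins on chromosome 27 at 37253485, only 36098 bases beyond the end of POLB, the gene in the series' title.

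Related carriers were compared within each library, for 9 of 40 pairs that had both members listed. In 8 of the 9 pairs the same member was higher in 5 of 5 animals. Genes whose levels differ by more than their spread between animals rank alike in every animal. No share over other pairs of genes was taken, so the count does not set these pairs apart. The mean log2 ratio of FPKM + 1 was 4.63 ± 0.33 for SLC38A2 over SLC38A1 (SD, n = 5). For SLC40A1 over SLC11A2 it was 3.24 ± 0.54, or 9.42-fold. For iron uptake only SLC11A2 was compared, and TFRC, the transferrin receptor, averaged 143 FPKM against 27.2 FPKM for SLC40A1. The ratio was 1.55 ± 0.42 for SLC38A10 over SLC38A9, 1.33 ± 0.24 for SLC30A5 over SLC30A7 and 1.21 ± 0.69 for SLC37A4 over SLC37A3. SLC38A9 and SLC37A3 were each listed at 0 in 2 libraries, so no fold is given for those pairs. Their log2 ratios depend most on the pseudocount. With 0.1 FPKM in place of 1 FPKM they were 3.06 ± 1.64 for SLC38A10 over SLC38A9 and 3.06 ± 1.73 for SLC37A4 over SLC37A3. The same change gave 5.02 ± 0.35 for SLC38A2 over SLC38A1 and 3.74 ± 0.68 for SLC40A1 over SLC11A2. The 24.8-fold and 9.42-fold values of those pairs therefore hold for a pseudocount of 1 FPKM only. Smaller excesses were those of SLC8A3 over SLC8A1 at 0.71 ± 0.55 and SLC4A7 over SLC4A4 at 0.69 ± 0.47.

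Each of these 8 pairs gave p = 0.0625 in the exact two-sided sign-flip permutation test, the smallest that 5 animals allow, and 0.0703 after Benjamini-Hochberg adjustment over the 9 pairs. With limma's moderated test, which draws part of the spread from the other pairs, the adjusted p of the 8 ran from 1.74e-07 for SLC38A2 over SLC38A1 to 0.0178 for SLC8A3 over SLC8A1. Both tests ask only whether the genes of a pair have equal levels. SLC12A2 over SLC12A7 had a mean log2 ratio of 0.26 ± 1.61 and the first gene was higher in 3 of 5 animals (exact p = 0.812, limma adjusted p = 0.649). Without library 4 this ratio was -0.42. With the most abundant transcript of each gene in place of the sum, the ratio of SLC8A3 over SLC8A1 was -0.13, that of SLC4A7 over SLC4A4 0.23 and that of SLC38A10 over SLC38A9 1.24. None of these 3 pairs then had the same member higher in all animals, and 5 of the 9 pairs did. SLC8A3 sums 3 listed transcripts and SLC4A7 6, while SLC4A4 has 3 listed of 5 numbered. SLC8A3, SLC8A1, SLC4A4, SLC38A10, SLC38A9, SLC37A4, SLC37A3, SLC12A2 and SLC12A7 had gaps in the numbering of their transcripts.

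**Figure D3:**
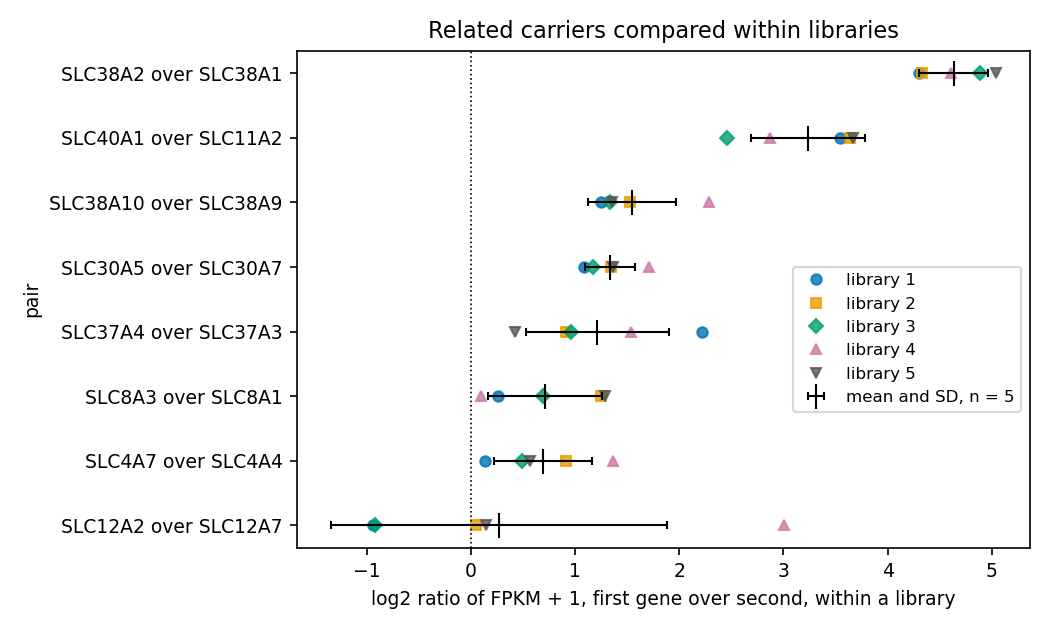
Log2 ratio of FPKM + 1 of the first gene over the second in each of the 5 libraries, with the mean as a vertical tick and the SD as whiskers, for 8 of the 9 pairs of related carriers. All points lie right of 0 (dotted) for 7 of those drawn, while SLC12A2 over SLC12A7 runs from -0.95 to 3.00.

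Across animals most detected carriers stayed less than 2-fold apart, though a smaller part of them than of detected genes with a symbol. The median SD on the log2(FPKM + 1) scale was 0.27 over the 61 detected carriers, against 0.24 over detected genes with a symbol. The highest library was less than 2-fold above the lowest for 37 of the 61 (60.7%), against 68.7% of detected genes with a symbol. The detected carriers were also lower in level, with a median mean of 3.68 FPKM against 6.46 FPKM. The part of level in this difference was not tested. An SD of at least 0.5 was found for 9 of the 61 (14.8%), against 14.0% of detected genes with a symbol, which is close to the background. Among them were SLC12A2, SLC16A7, SLC35A1, SLC2A9, SLC4A4, SLC37A4, SLC35A3 and SLC39A3. A single library stood apart, by a gap of more than 0.71 of the range, for 4 of the 61 (6.56%), against 7.52% of detected genes with a symbol. Library 1 was the highest for 17 of the 61 (27.9%), against 23.7% of detected genes with a symbol, and library 4 for 18 (29.5%), against 27.2%. Libraries 2, 3 and 5 were the highest for 9 (14.8%), 6 (9.84%) and 11 (18.0%) of them, against 14.1%, 17.0% and 18.0% of detected genes with a symbol.

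**Figure D4:**
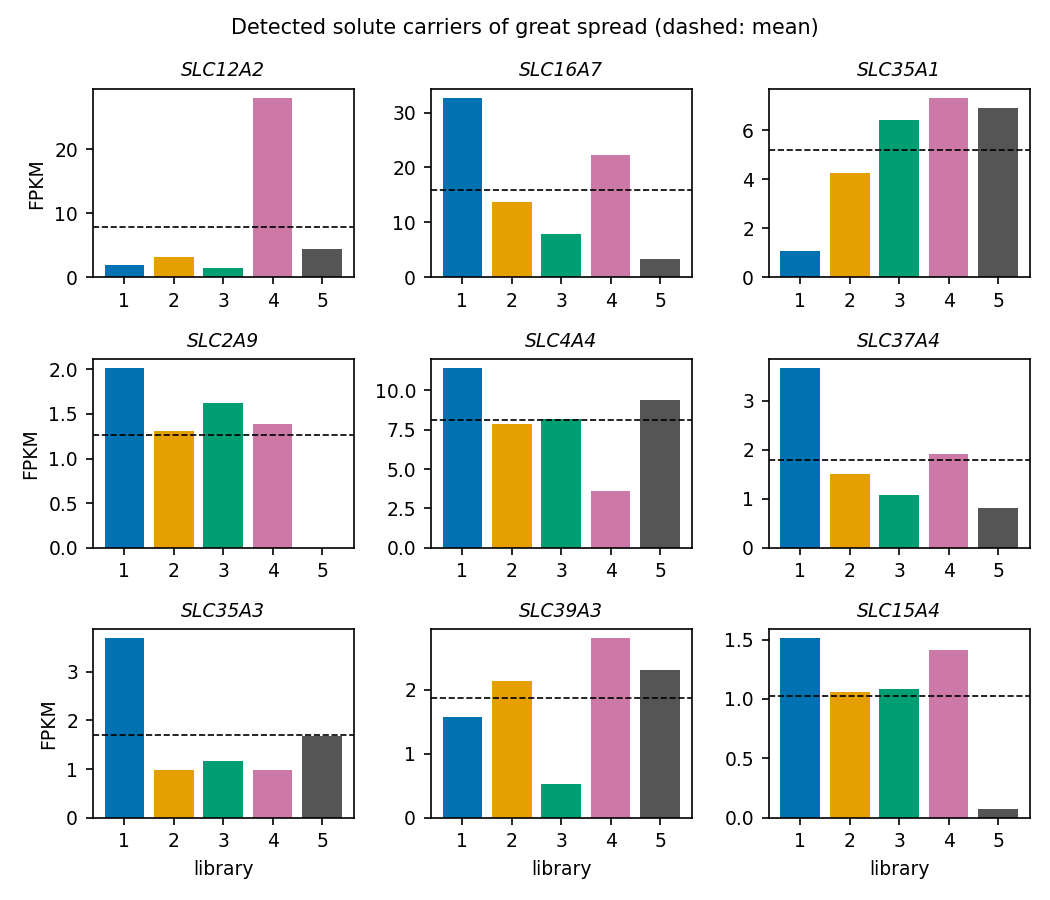
FPKM in each of the 5 libraries (bars) for 9 detected carriers with a great SD on the log2(FPKM + 1) scale, with the mean as a dashed line. Different libraries stand out for different genes: library 4 is high for SLC12A2 at 28.0 FPKM, library 1 is low for SLC35A1 at 1.08 FPKM, and library 5 is at 0 for SLC2A9.

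The 106 genes had 145 listed transcripts, and 29 genes had more than 1. Among the 24 of these that were detected, the leading transcript differed between libraries in 7 (29.2%), against 28.5% of detected genes with a symbol and several transcripts. Among the 7 were SLC7A2, SLC38A10, SLC39A11, SLC8A3, SLC8B1 and SLC15A4, named here after their values were seen.

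In several genes the transcripts exchanged places while the sum moved less. SLC7A2-201 was at 5.62 and 4.59 FPKM in libraries 3 and 4, above SLC7A2-202 at 3.83 and 3.74 FPKM. In library 5 it was at 0.973 FPKM, against 10.1 FPKM for SLC7A2-202. The sum of SLC7A2 had an SD of 0.15 on the log2(FPKM + 1) scale, but its more variable transcript had 0.68. SLC39A11-201 held the signal in libraries 1 and 2, at 2.16 and 1.82 FPKM, and SLC39A11-202 in libraries 3 to 5, at 3.16, 3.32 and 2.58 FPKM.

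In SLC38A10 the transcripts also exchanged places in library 2, but the sum fell too, to 1.87 FPKM against 3.60 to 4.30 FPKM in the others. There SLC38A10-203 was at 1.87 FPKM and SLC38A10-202 listed at 0, whereas SLC38A10-202 was at 3.59 to 4.30 FPKM in the other 4 libraries and SLC38A10-203 at most 0.0109 FPKM. In SLC29A1 the leading SLC29A1-202 stayed at 55.5 to 78.2 FPKM, while the minor forms alternated. SLC29A1-203 had 5.28 FPKM in library 2 and 5.27 FPKM in library 4, with no more than 0.134 FPKM elsewhere, and SLC29A1-201 was at 5.32, 8.54 and 4.83 FPKM in libraries 1, 3 and 5, against 0.684 and 0.672 FPKM in libraries 2 and 4. These are estimates of overlapping transcripts, and whether the RNA or its assignment to transcripts differed was not tested.

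**Figure D5:**
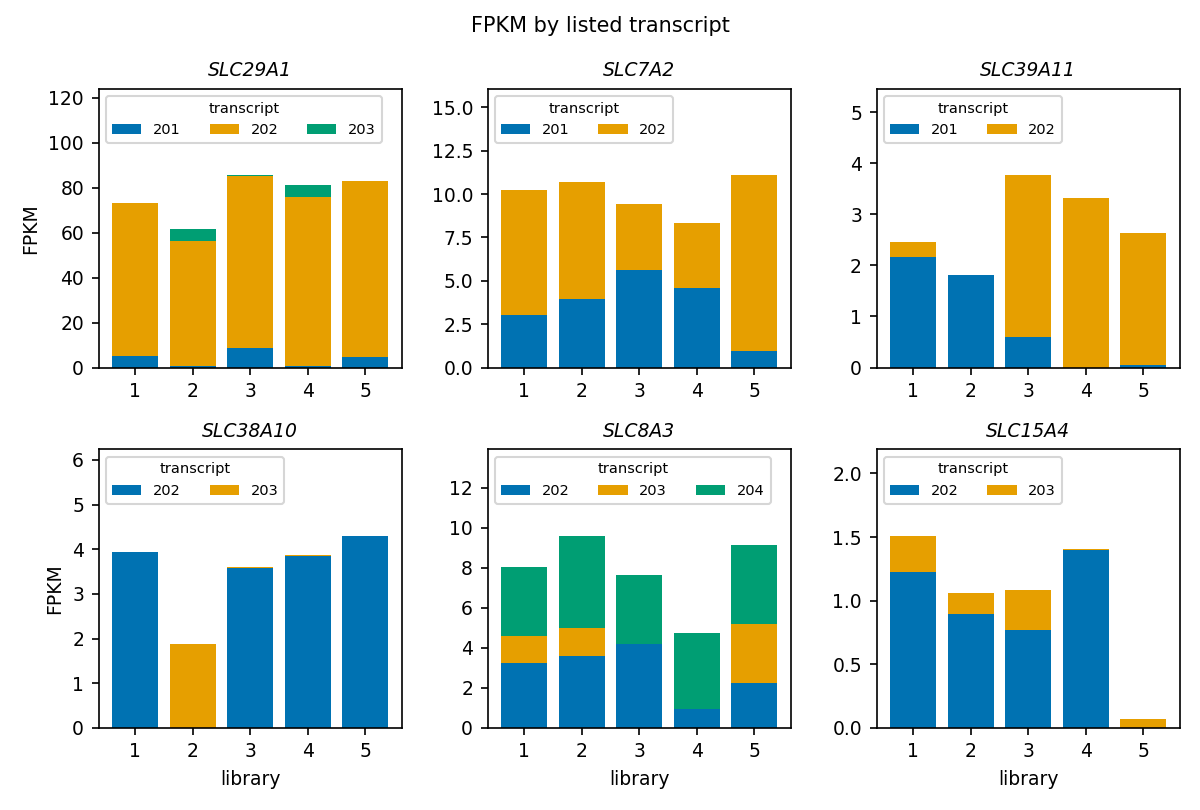
FPKM of each listed transcript (stacked, numbered as in the table) in the 5 libraries for 6 detected carriers. In SLC39A11 and SLC38A10 a different transcript fills the bar in different libraries, and in SLC29A1 the small contributions of 201 and 203 alternate between libraries while 202 stays at 55.5 FPKM or more.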

How the data were processed

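RNA-seq libraries from 5 animals were used, all in 1 group. Values were FPKM per transcript as deposited by the authors, per the file headers. The submitters' processing notes name UMD3.1, HTSeq 0.6.0 and DESeq2 1.10.1, with no role given for any of them, and the aligner is not given in the sources used here. Read depth was unknown, so counting error could not be given.

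FPKM was summed per gene identifier. Listed transcript numbers had gaps in 35 of the 106 members, so those sums may be partial. Detection was a mean of at least 1 FPKM, and spreads were taken on log2(FPKM + 1). A library stood apart when Dixon's gap ratio exceeded 0.71 (0.829 with 4 libraries). Related carriers were compared within libraries with exact two-sided permutation of signs, with limma 3.58.1 in R 4.3.3 as an alternative. Only spread between these animals enters the p-values. Other steps used Python 3.11.15, pandas 2.3.3 and scipy 1.17.1. The tests were tried on simulated data.

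Substrate classes and locations were assigned by hand. Members and lists were chosen with earlier results of these data known. No background share was taken for how many genes of a partner list were listed. Genes were named by rule: all listed sugar, lactate, zinc and nucleoside carriers, the 6 highest and 2 most variable detected members of each other class, the 10 highest of all, both members of each pair, detected members with a library standing apart, and the 3 highest partners of each list. SLC1A1, SLC1A2, SLC6A6, SLC7A10, SLC8B1, SLC20A2, SLC36A1 and SLC38A4 fall outside it and were named after their values were seen. Of the genes and pairs that the rule names, 2 genes and 1 pair are not reported here. Alternatives covered the pseudocount, scaling, transcript sums, detection limit, test and each library left out.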

Additional observations from a re-analysis of the deposited data

Results flagged for a closer look

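A library stood apart from the other 4, with a gap to its nearest neighbour of more than 0.71 of the whole range, for 4 of the 61 detected carriers (6.56%), against 7.52% of detected genes with a symbol. Chance flags about 1 in 20 groups. SLC38A10 was low in library 2, at 1.87 FPKM, where its transcript SLC38A10-202 was listed at 0. SLC2A9 was listed at 0 in library 5 and SLC15A4 was low in the same library, at 0.0707 FPKM. SLCO2B1 was high in library 1, at 7.32 FPKM.

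Among undetected carriers named in the text, SLC28A1 was high in library 1, at 0.290 FPKM, and SLC6A6 in the same library, at 1.16 FPKM. Library 4 stood apart in 2 of the 9 pairs: the log2 ratio of SLC12A2 over SLC12A7 was 3.00 there and that of SLC38A10 over SLC38A9 was 2.28, with SLC38A9 listed at 0. Outside the carriers, WNK1 was low in library 4, at 12.1 FPKM, and the smooth muscle marker MYH11 was high in library 1, at 7.82 FPKM.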

How the results depend on the processing

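The number of detected carriers was 24 with a limit of 5 FPKM and 106 with none, 82 after rescaling to TPM, and 59 to 61 with each library left out. The median SD of 0.27 was 0.34 with a pseudocount of 0.1 FPKM, 0.36 after rescaling to TPM, 0.21 with a limit of 5 FPKM, 0.20 with no limit, 0.22 for members with at least 1 FPKM in every library, and 0.22 to 0.26 with each library left out. The 4 carriers with a library standing apart became 6 after rescaling to TPM, 1 with a limit of 5 FPKM, 8 with no limit, 2 with at least 1 FPKM in every library, and 1 to 3 with each library left out. That count was 1 among members without gaps in transcript numbering, a setting chosen after seeing the data. With the highest transcript in place of the sum, 5 pairs kept 1 direction, SLC8A3 over SLC8A1 reversed to -0.13, and the shares of nucleotide sugar and organic ion carriers were 7.21% and 5.72%. Leaving out each library gave -0.42 to 0.57 for SLC12A2 over SLC12A7, the lowest without library 4. Without SLC38A2 and SLC29A1, also chosen after seeing the data, the 10 most abundant members held 42.2%. Under limma's test 8 pairs passed an adjusted p of 0.05 that the exact test could not reach with 5 animals. No paired analysis between groups was possible because all 5 libraries form 1 group, and pairs here are genes within a library. The libraries summed to between 193706 and 223251 FPKM, so rescaling to TPM raised every value while the limit and the pseudocount stayed at 1. Apart from that, the cause of these shifts was not tested.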
